A study of Homo sapiens with 8 samples.

Results

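The mRNAs of the unfolded protein response and of the integrated stress response were followed in the human cancer cell line KYSE850, derived from esophageal squamous cell carcinoma, after silencing of KHSRP, an RNA-binding protein that acts on mRNA decay and on miRNA maturation. The group holds 39 genes, of 20249 genes that had a probe and a symbol. They were chosen by name for their place in these pathways, and all probes whose RefSeq accession maps to a member were used, 47 probes in all. Each of the 39 genes had at least 1 probe. Total RNA of 4 samples from cells given a control siRNA and of 4 samples from cells given KHSRP siRNA was hybridised to 8 one-colour arrays. All 8 samples are the same cell line with no other treatment in the labels. The labels do not give the time after transfection, nor which of the study's KHSRP siRNAs went onto which array, and nothing says that the 4 samples of a group were separate cultures, so that the p-values below measure the spread between these samples, which may be technical.

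Cells answer an excess of unfolded protein in the endoplasmic reticulum (ER) through a set of membrane sensors. ERN1, known as IRE1, splices XBP1 mRNA so that it encodes an active transcription factor. ATF6 is cut in the Golgi apparatus to release another factor. EIF2AK3, known as PERK, phosphorylates the translation factor eIF2α, which lowers protein synthesis as a whole while ATF4 is translated more. XBP1 and ATF6 turn on chaperones, folding enzymes and the machinery that sends misfolded proteins out of the ER for degradation. ATF4 turns on amino acid metabolism and the factor DDIT3, known as CHOP. Kinases other than PERK also phosphorylate eIF2α, and this wider pathway is called the integrated stress response. Cells that secrete much protein rely on these pathways in normal growth as well as under stress.

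The promoters of several ER chaperone genes hold a short element through which ATF6 and XBP1 are known to act, the ER stress element (ERSE): the letters CCAAT, then 9 bases of any kind, then CCACG. It is shown here because the genes that hold it lay on the same side of the comparison, as described further on. A window from 250 bases before to 50 bases after the transcript start was searched on both strands for exact matches in RefSeq sequence of build GRCh38.p14, where 37 of the 39 members had an entry. ERSE was found in 8 members (21.6%) and in 27 of all 35116 promoters (0.0769%). The shares of members count genes, while those of all promoters count entries, of which a gene can have several. The entries of the members are among them, and the same holds for the other motifs below. In the lines below each match is written in the direction of the motif, with both fixed parts in capitals.
HSPA5, chr9:125241391-125241409: CCAATcggcggcctCCACG
HSP90B1, chr12:103930216-103930234: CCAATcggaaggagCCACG
HSP90B1, chr12:103930321-103930339: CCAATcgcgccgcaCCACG
CALR, chr19:12938384-12938402: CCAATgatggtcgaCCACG
CANX, chr5:179698778-179698796: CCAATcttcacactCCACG
PDIA6, chr2:10812853-10812871: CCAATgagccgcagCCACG
CRELD2, chr22:49918554-49918572: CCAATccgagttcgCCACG
ERO1B, chr1:236282183-236282201: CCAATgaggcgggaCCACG
XBP1, chr22:28800603-28800621: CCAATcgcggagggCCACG

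A related element, ERSE-II, has the letters ATTGG, 1 base of any kind, and CCACG. It was found in HERPUD1, HYOU1 and SDF2L1 (8.11% of the members) and in 19 of all promoters (0.0541%). The 250 bases before the start are given for HSPA5, the member with the smallest adjusted p among those that fell, on the minus strand at chr9:125241344-125241593; for HERPUD1, the member of the degradation machinery with the largest difference, on the plus strand at chr16:56931892-56932141; and for HYOU1, which holds a pair of ERSE-II matches, on the minus strand at chr11:119057206-119057455. They run in the direction of the gene, and capitals mark the fixed letters of ERSE or ERSE-II and, at the upstream site of HYOU1, also of a match to the XBP1 element TGACGTGG (UPRE), which overlaps the ERSE-II there.
HSPA5: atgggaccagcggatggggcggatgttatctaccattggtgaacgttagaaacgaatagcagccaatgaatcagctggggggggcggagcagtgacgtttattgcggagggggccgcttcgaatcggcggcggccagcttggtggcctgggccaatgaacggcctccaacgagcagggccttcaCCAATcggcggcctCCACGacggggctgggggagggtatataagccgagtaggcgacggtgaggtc
HERPUD1: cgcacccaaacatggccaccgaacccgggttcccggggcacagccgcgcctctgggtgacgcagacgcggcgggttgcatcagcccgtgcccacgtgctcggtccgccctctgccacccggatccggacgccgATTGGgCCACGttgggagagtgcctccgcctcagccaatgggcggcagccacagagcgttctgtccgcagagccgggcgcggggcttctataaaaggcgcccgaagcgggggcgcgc
HYOU1: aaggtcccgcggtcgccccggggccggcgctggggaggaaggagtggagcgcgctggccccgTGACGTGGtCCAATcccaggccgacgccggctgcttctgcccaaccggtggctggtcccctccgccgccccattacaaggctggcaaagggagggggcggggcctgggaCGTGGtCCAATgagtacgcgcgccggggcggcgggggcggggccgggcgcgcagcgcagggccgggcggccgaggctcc

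Levels are log2 fluorescence relative to the 75th percentile of the non-control probes on the same array, and a difference of 1 is a 2-fold difference in signal. Between 45.1% and 49.4% of the 42405 probes were well above background on an array, and no spot was saturated. KHSRP itself, on its brighter probe, was at 6.03, 5.81, 6.39 and 6.08 on the control arrays and at 2.52, 2.58, 2.88 and 2.85 on the KHSRP siRNA arrays. On that probe 9.66% of the control signal was left (two-sided exact permutation test, p = 0.0286, which 4 against 4 arrays cannot go below). The dimmer KHSRP probe had a log2 fold change of -2.67 (limma, adjusted p = 0.0147) and was well above background on no KHSRP siRNA array. Keratin 5 (KRT5), a marker of squamous cells, was at 5.84, 4.30, 5.84 and 3.11 on control arrays 1 to 4 and at 5.92, 4.46, 2.92 and 5.98 on KHSRP siRNA arrays 1 to 4. All 7 squamous markers examined (TP63, KRT5, KRT14, KRT6A, DSG3, PKP1 and SFN) were well above background on all 8 arrays, and all 7 were lower on control arrays 2 and 4 than on control arrays 1 and 3, and lower on KHSRP siRNA arrays 2 and 3 than on KHSRP siRNA arrays 1 and 4. The leukocyte and macrophage marker CD68 ran the same way, from -0.43 to 1.78 on the control arrays and from -0.18 to 2.10 on the KHSRP siRNA arrays. So did CD14, over a smaller range, from -2.62 to -1.95 and from -2.64 to -1.87. COL1A1 ran the opposite way, from -2.45 to -1.40 and from -2.52 to -1.14. The other 4 of 5 fibroblast genes (COL1A2, COL3A1, DCN and LUM), all 3 endothelial genes (PECAM1, VWF and CDH5) and the B cell gene MS4A1 were not well above background on any array, while CD14 was on all 8, and PTPRC and CD3E were on some. The part of this variation in the results below was not tested directly; fits that left out single arrays or blocked by replicate number are given beside them. As another limit, the series matrix columns of KHSRP siRNA replicates 3 and 4 held the values of each other's scanner files, so arrays are numbered here after their scanner files.

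The first question was whether members changed with KHSRP siRNA. Of the 39 genes, 35 had a probe bright enough to be tested. SESN2 rose, and HSPA5, DNAJC3 and MANF fell. Over all 18761 tested probes 5.54% were called at an adjusted p under 0.05 (limma), and 4 of the 41 tested member probes were. Counted by gene, 1 of 35 members (2.86%) was called higher, beside 2.14% of 12125 genes, and 3 of 35 (8.57%) were called lower, beside 4.06%. The median log2 fold change of the 35 members was -0.26 and that of all genes 0.01, and 26 of 35 members (74.3%) were on the lower side, beside 49.1% of all genes. Members whose groups did not overlap numbered 9 on the lower side (25.7%, beside 9.72% of all genes) and 1 on the higher side (2.86%, beside 6.48%). In the interval plot by role list, 13 of the 26 members on the lower side are chaperones or folding enzymes.

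**Figure D1:**
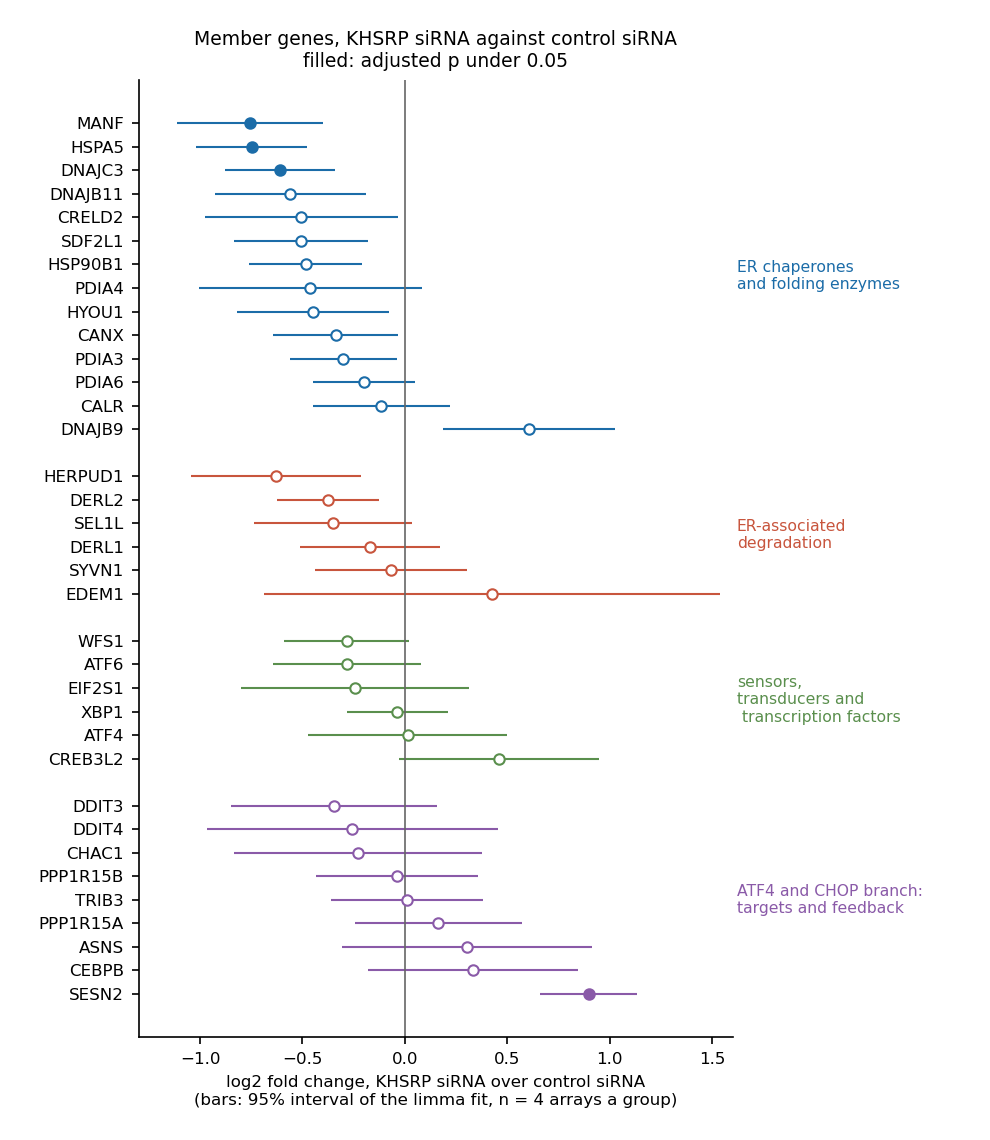
Log2 fold change of the 35 tested members, KHSRP siRNA over control siRNA (horizontal axis), with 95% intervals of the limma fit (n = 4 arrays a group) and genes grouped by role. Filled points had an adjusted p under 0.05: MANF, HSPA5 and DNAJC3 on the lower side and SESN2 on the higher side, while 13 of 14 chaperones and folding enzymes lie to the left of 0.

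ER chaperones and folding enzymes were the list with the lowest median after KHSRP siRNA. Of 15 genes 14 were tested. Of these, 3 fell (21.4%, beside 4.06% of all genes) and none rose (beside 2.14%). The median log2 fold change was -0.47, with a range from -0.76 to 0.61. At an unadjusted p under 0.05, 10 of the 14 were lower (71.4%), beside 11.6% of all genes. In 8 of the 14 (57.1%) every KHSRP siRNA array lay below every control array, beside 9.72% of all genes.

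HSPA5 encodes BiP, the main Hsp70 chaperone of the ER lumen, which also holds the sensors inactive. Its log2 level was 3.80, 4.07, 4.01 and 3.97 on the control arrays and 3.09, 3.13, 3.22 and 3.41 on the KHSRP siRNA arrays. The groups did not overlap, and the lowest control array was above the highest KHSRP siRNA array. HSPA5 fell by 0.75 on the log2 scale, 1.68-fold (SE 0.12, limma, adjusted p = 0.0102). The difference was -0.82 on the first slide and -0.67 on the second, and the call held without each of the 8 arrays in turn.

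DNAJC3, known as p58IPK, is an ER co-chaperone of BiP that is also known to restrain PERK. Its log2 level was 2.49, 2.41, 2.66 and 2.50 on the control arrays and 1.74, 1.89, 1.89 and 2.10 on the KHSRP siRNA arrays. Again every KHSRP siRNA array was below every control array. DNAJC3 fell by 0.61 on the log2 scale, 1.53-fold (SE 0.12, limma, adjusted p = 0.0217). The size was -0.64 on the first slide and -0.58 on the second, but the call held only without KHSRP siRNA replicate 4, and without any other single array the adjusted p was 0.0523 to 0.0701 (limma).

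MANF is a small ER protein that is secreted on stress and is a cofactor of BiP. Its log2 level was 6.40, 6.66, 6.41 and 6.83 on the control arrays and 5.56, 5.84, 6.10 and 5.78 on the KHSRP siRNA arrays. The groups did not overlap, and control arrays 2 and 4 and KHSRP siRNA arrays 2 and 3 were the higher ones of their groups, the arrays on which the squamous markers were low. MANF fell by 0.76 on the log2 scale, 1.69-fold (SE 0.16, limma, adjusted p = 0.0285). Without either replicate 3, control or KHSRP siRNA, the call held, and without any of the other 6 arrays the adjusted p was 0.0613 to 0.0897 (limma).

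The other 11 tested genes of the list did not pass the test in the fit with no block. With the series matrix replicate number as a block, which called 17.1% of all genes lower and 15.9% higher, 8 of the 11 passed. DNAJB9 was on the higher side and DNAJB11, CRELD2, SDF2L1, HSP90B1, PDIA4, HYOU1 and CANX on the lower side (limma, adjusted p = 0.00482 to 0.0364). With the scanner file number as a block none of the 11 passed. The differences of 6 lay between -0.45 and -0.56: DNAJB11, a BiP co-chaperone (-0.56), CRELD2 (-0.51), SDF2L1 (-0.51), HSP90B1, the ER form of Hsp90 (-0.48), the disulfide isomerase PDIA4 (-0.46), and HYOU1, a large Hsp70-type chaperone (-0.45). Their adjusted p ran from 0.0567 for HSP90B1 to 0.346 for PDIA4 (limma). With the slide as a block HYOU1 passed the threshold (limma, adjusted p = 0.0337). The lectin chaperones CANX and CALR, which retain glycoproteins until they are folded, stood at -0.34 and -0.12, and the disulfide isomerases PDIA3 and PDIA6 at -0.30 and -0.20. Calreticulin's 95% interval, from -0.45 to 0.22, leaves room for a fall as large as that of several other chaperones. The 1 gene of the list with a higher level was DNAJB9, a co-chaperone known as ERdj4 that is a classic XBP1 target, with a difference of 0.61 (limma, adjusted p = 0.103). ERO1B, which passes oxidising equivalents to the disulfide isomerases, was too dim to test: its probe passed the background criterion on 3 of 4 control arrays and 1 of 4 KHSRP siRNA arrays.

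**Figure D2:**
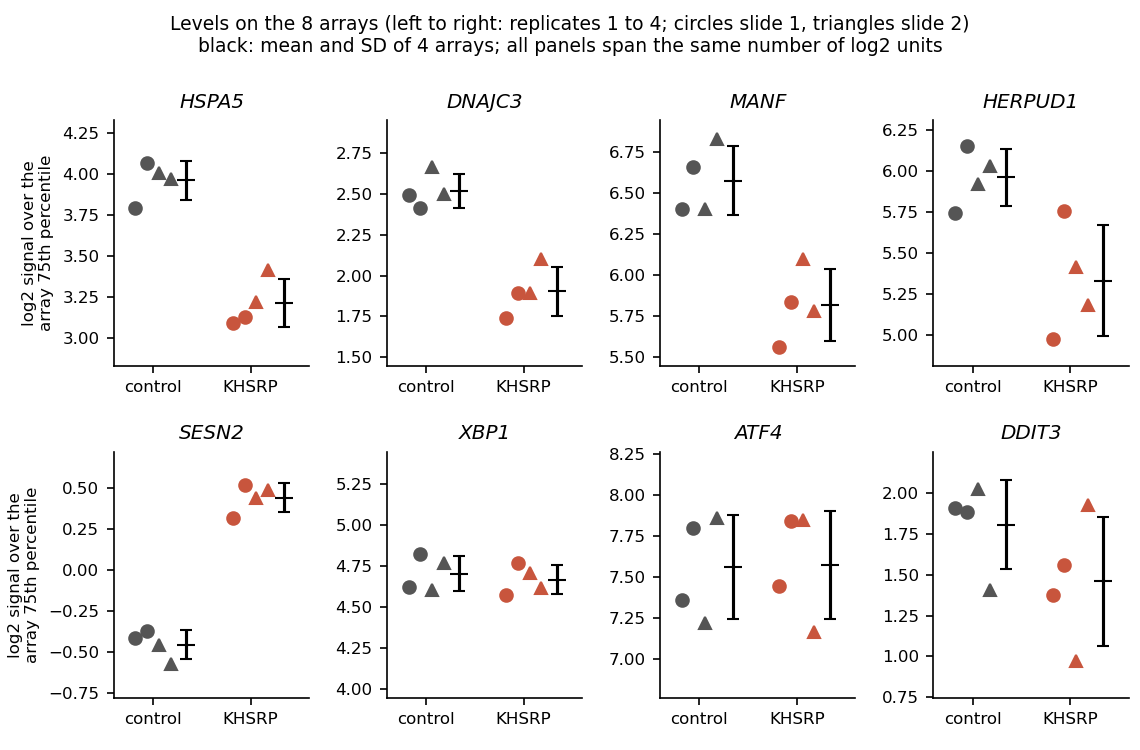
Log2 signal relative to the 75th percentile of the array (vertical axis) for 8 members on the 4 control siRNA and 4 KHSRP siRNA arrays, as points from left to right for replicates 1 to 4, with circles for the first slide, triangles for the second, and the mean and SD in black. HSPA5, DNAJC3 and MANF lie lower and SESN2 higher on every KHSRP siRNA array, the groups of HERPUD1 overlap at 1 array, and ATF4 splits into a high and a low pair of arrays within each group.

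Genes of ER-associated degradation take misfolded proteins out of the ER to the proteasome. All 6 were tested and none passed the test. On the lower side 2 had an unadjusted p under 0.05 (33.3%, beside 11.6% of all genes). The methods' t-test, Benjamini-Hochberg adjusted, called DERL2. With the series matrix number as a block HERPUD1, SEL1L and DERL2 passed on the lower side and EDEM1 on the higher side. That block called 17.1% of all genes lower and 15.9% higher. With the scanner file number as a block no gene of the list passed. Of the 6, 5 were on the lower side, with a median log2 fold change of -0.26. The largest difference was that of HERPUD1, which organises the membrane complex around the ligase SYVN1 and is itself induced by ER stress. HERPUD1 was at 5.74, 6.15, 5.92 and 6.03 on the control arrays and at 4.97, 5.76, 5.42 and 5.18 on the KHSRP siRNA arrays. KHSRP siRNA array 2 reached just past the lowest control array, and the other 3 were below all controls. The log2 fold change was -0.63 (SE 0.18, limma, adjusted p = 0.0897), and without KHSRP siRNA replicate 2 it was -0.77 and passed the threshold (limma, adjusted p = 0.0495).

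DERL2, a membrane protein of the exit channel, did not overlap between groups and had a log2 fold change of -0.38 (limma, adjusted p = 0.0897). SEL1L, the partner of SYVN1, was at -0.35 on its brightest probe and at -0.62 on a dimmer one (limma, adjusted p = 0.0670), and a further SEL1L probe was not well above background on any array. DERL1 and SYVN1 stood at -0.17 and -0.07. EDEM1, a lectin that picks out trimmed glycoproteins for degradation, had a difference of 0.43, with a 95% interval from -0.69 to 1.54 that spans a larger range than that of any other tested member.

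Among the sensors and transcription factors no member passed the test in the fit with no block, and none differed at an unadjusted p under 0.05. The 6 tested genes had a median log2 fold change of -0.14. With the series matrix number as a block WFS1 passed on the lower side, as did 17.1% of all genes. XBP1 was at 4.62, 4.82, 4.60 and 4.77 on the control arrays and at 4.57, 4.77, 4.71 and 4.62 on the KHSRP siRNA arrays. The groups covered the same range. The difference was -0.04 with a 95% interval from -0.28 to 0.21 (limma, adjusted p = 0.918), so that a change of more than 0.28 in either direction lies outside it. The array holds 1 XBP1 probe, and spliced and unspliced mRNA were not told apart.

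ATF4 was at 7.36, 7.80, 7.22 and 7.86 on the control arrays and at 7.44, 7.84, 7.85 and 7.17 on the KHSRP siRNA arrays. In both groups a pair of arrays was high and a pair low, and the high ones were those with low squamous markers. The difference was 0.01 with a 95% interval from -0.47 to 0.50 (limma, adjusted p = 0.986), and its sign turned under median scaling and normexp background correction. ATF4 is controlled mainly at translation, which an array does not measure.

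CREB3L2, a factor related to ATF6 that is also cut in the Golgi apparatus, had the largest difference of this list. It was at 2.51, 2.49, 2.21 and 2.53 on the control arrays and at 2.60, 3.41, 3.11 and 2.48 on the KHSRP siRNA arrays. KHSRP siRNA arrays 2 and 3 stood above all others, array 1 was just above the highest control and array 4 was among the controls. The log2 fold change was 0.46 (SE 0.21, limma, adjusted p = 0.286), and a dimmer CREB3L2 probe gave 0.07. ATF6 and WFS1, an ER membrane protein known to restrain ATF6, both stood at -0.28 (limma, adjusted p = 0.389 and 0.295). The kinases ERN1 and EIF2AK3 were too dim to test, ERN1 being well above background on 1 of the 8 arrays and EIF2AK3 on 3.

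In the ATF4 and CHOP branch 1 of 9 tested genes rose (11.1%, beside 2.14% of all genes) and none fell (beside 4.06%). The median log2 fold change was 0.01. SESN2, sestrin 2, is an ATF4 and p53 target that lowers mTORC1 activity when leucine is scarce. Its log2 level was -0.42, -0.37, -0.46 and -0.57 on the control arrays and 0.32, 0.52, 0.44 and 0.49 on the KHSRP siRNA arrays. The groups were far apart for their spread, and no array stood away from its group. SESN2 rose by 0.90 on the log2 scale, 1.86-fold (SE 0.10, limma, adjusted p = 0.00293). The difference was 0.81 on the first slide and 0.98 on the second, and the call held without each of the 8 arrays in turn.

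The other genes of the branch did not pass the test in the fit with no block. With the series matrix number as a block DDIT3 passed on the lower side and ASNS and CEBPB on the higher side, by their brightest probes. That block called 17.1% of all genes lower and 15.9% higher. DDIT3 (CHOP), the factor of the late response, was at 1.90, 1.88, 2.02 and 1.41 on the control arrays and at 1.38, 1.56, 0.98 and 1.92 on the KHSRP siRNA arrays. The groups overlapped: control array 4, the lowest control, lay within the range of the KHSRP siRNA arrays, and KHSRP siRNA array 4 was above 3 of the 4 controls. The log2 fold change was -0.34 (SE 0.22, limma, adjusted p = 0.461). TRIB3, a pseudokinase that CHOP and ATF4 induce, stood at 0.01 with a 95% interval from -0.36 to 0.38. The eIF2α phosphatase subunits that end the response stood at 0.16 (PPP1R15A) and -0.04 (PPP1R15B), and CEBPB, a bZIP factor that pairs with CHOP and ATF4, at 0.33. VLDLR, a lipoprotein receptor, was too dim to test and was well above background on 2 arrays of each group with its brighter probe and on none with the other.

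Of the 11 members with an exact ERSE or ERSE-II match 10 were tested, and all 10 were on the lower side, with a median log2 fold change of -0.47 and a range from -0.75 to -0.04. HSPA5 was the 1 of them that was called. Of the 23 tested members with a promoter entry and neither match, 14 were on the lower side and the median was -0.23. The 3 called among the 23 were DNAJC3 and MANF, lower, and SESN2, higher. Over all genes 4.06% were called lower and 2.14% higher. The matches of HSPA5 and XBP1 both lay close to the start, 48 to 66 bases before it for HSPA5 and 34 to 52 for XBP1, while their differences were -0.75 and -0.04. These are descriptions of a small group in which most ERSE holders are chaperones, and a match is not evidence that a factor binds there. UPRE was found in HYOU1 alone among the members (2.70%) and in 0.729% of all promoters. For the element of ATF4 and C/EBP factors (CARE) only the form TGATG, any base, AAT was searched. That form was found in no member window and in 0.991% of all promoters. The windows of ASNS, CHAC1, HERPUD1 and PPP1R15B hold a run, on either strand, that differs from it only in the last base, C in place of T. Other forms were not counted, so that these members cannot be said to lack the element.

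**Figure D3:**
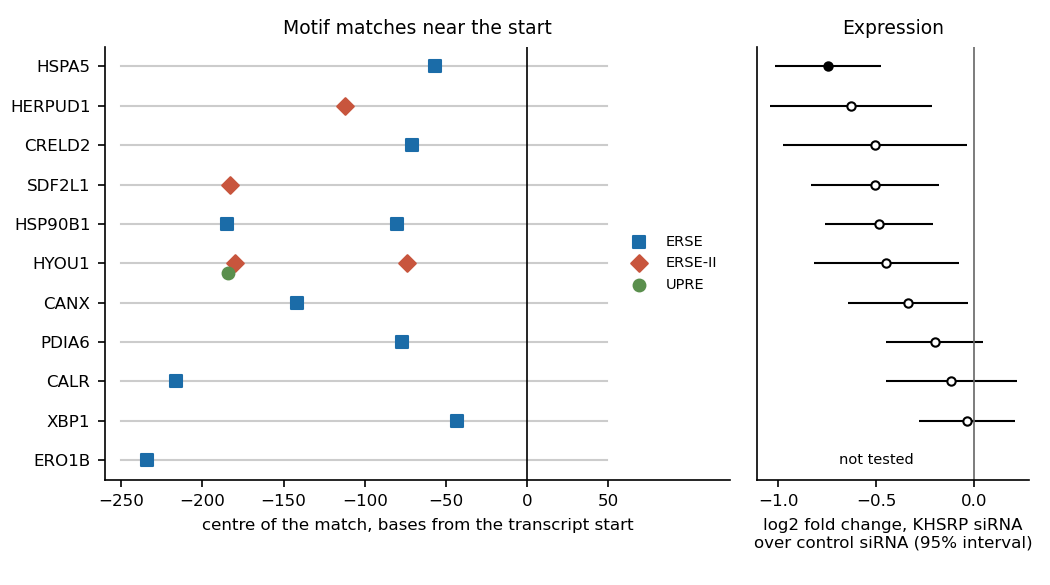
Left, centre of each exact motif match in bases from the transcript start (horizontal axis, 0 is the start) for the 11 members with a match, with squares for ERSE, diamonds for ERSE-II and a circle for UPRE; right, log2 fold change of the same genes, KHSRP siRNA over control siRNA, with 95% intervals of the limma fit (filled, adjusted p under 0.05). All 10 tested genes have a point estimate below 0, and the smallest are those of XBP1 (-0.04) and CALR (-0.12).

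The second question was how far members varied between arrays of the same group. The pooled SD within groups had a median of 0.23 on the log2 scale over the 35 members, beside 0.25 over all tested genes, and 14 members were above the latter. The lists differed in it: the median was 0.19 in the chaperones, 0.23 in ER-associated degradation, 0.27 in the sensors and factors, and 0.34 in the ATF4 and CHOP branch, where 6 of 9 genes were above the median of all genes and 3 of 14 chaperones were. SESN2 had the smallest SD of all members, 0.088, and 4.32% of tested genes had a smaller one. XBP1 had the next smallest, 0.099.

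EDEM1 varied more than any other tested member, with an SD of 0.81 that was larger than that of 94.5% of tested genes. Its log2 level was -1.34, -2.31, -1.04 and -2.70 on the control arrays and -1.05, -1.81, -2.35 and -0.47 on the KHSRP siRNA arrays. Control arrays 2 and 4 and KHSRP siRNA arrays 2 and 3 were the low ones, as they were for the squamous markers. The range within each group was several times the difference of 0.43 between the group means.

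The 4 next most variable members were the stress-induced mTORC1 inhibitor DDIT4 (SD 0.50), asparagine synthetase ASNS (0.42), the glutathione-degrading enzyme CHAC1 (0.42) and EIF2S1, which encodes eIF2α (0.38). DDIT4 was at 3.01, 3.58, 2.36 and 3.61 on the control arrays and at 2.71, 3.22, 3.20 and 2.40 on the KHSRP siRNA arrays. ASNS was at 5.30, 6.06, 5.41 and 6.15 on the control arrays and at 5.67, 6.37, 6.41 and 5.69 on the KHSRP siRNA arrays. Both were highest on control arrays 2 and 4 and KHSRP siRNA arrays 2 and 3, like ATF4 and unlike EDEM1. EIF2S1 was at 0.80, 1.41, 0.73 and 1.50 on the control arrays and at 0.70, 0.73, 1.40 and 0.63 on the KHSRP siRNA arrays. KHSRP siRNA array 3 stood apart from the other arrays of its group. CHAC1 was at 1.78, 2.19, 1.30 and 1.81 on the control arrays and at 1.17, 2.20, 1.57 and 1.23 on the KHSRP siRNA arrays, so that array 2 was the highest of both groups. The differences between groups were -0.26 for DDIT4, 0.30 for ASNS, -0.23 for CHAC1 and -0.24 for EIF2S1, with adjusted p from 0.628 to 0.751 (limma). A dimmer CHAC1 probe gave -0.42 (limma, adjusted p = 0.519). With the series matrix number as a block that probe passed the threshold (limma, adjusted p = 0.00673).

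Other members shared this order of the arrays in either direction. In 12 of 35 members (34.3%) control arrays 2 and 4 and KHSRP siRNA arrays 2 and 3 were the higher pair of both groups: ATF4, ASNS, CHAC1, DDIT4, EIF2S1, XBP1, HSP90B1, MANF, CRELD2, SDF2L1, DNAJB9 and HERPUD1. They were the lower pair of both groups in 6 members (17.1%): EDEM1, CEBPB, PPP1R15A, SEL1L, DERL2 and DNAJB11. Over all tested genes the same orders held in 27.9% and 19.2%, so that the order was widespread and not particular to these pathways. Each array pair includes both slides. What sets these arrays apart was not tested, and they were not used as groups.

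**Figure D4:**
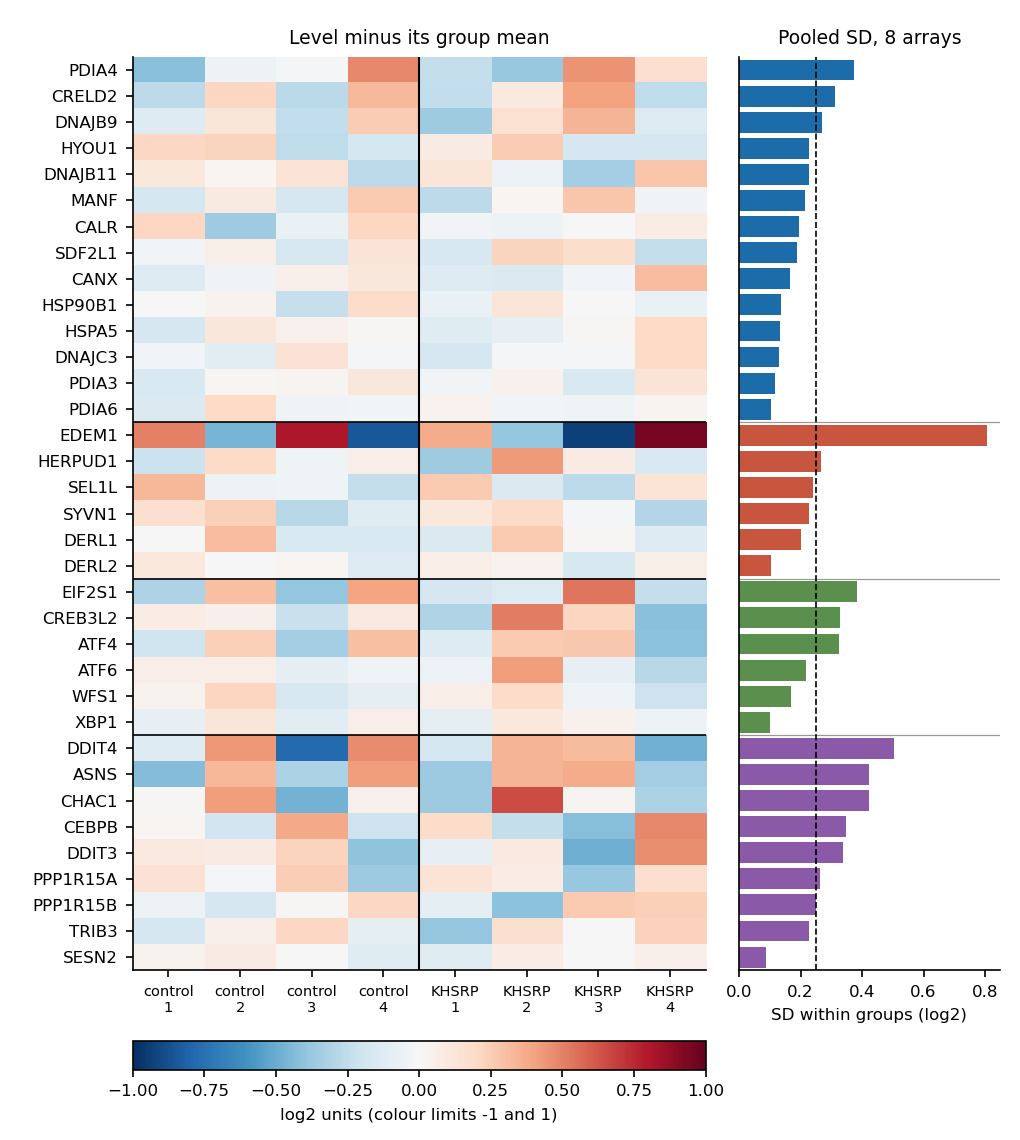
Left, log2 level of each tested member on each array minus the mean of its group of 4 (colour, limits -1 and 1; the highest EDEM1 value lies past the limit), with genes ordered within each role list by their SD; right, the SD within groups pooled over the 8 arrays (bars), with the median of all tested genes (0.25) as a dashed line. EDEM1 (0.81) varied most and SESN2 (0.088) least, and EDEM1 runs opposite to ATF4, ASNS and DDIT4 across the arrays.

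Replicates 1 and 2 of both groups were on the first slide and replicates 3 and 4 on the second. No member was called between slides, and no gene of the 12125 was (0%, limma). The lowest adjusted p of a member on its brightest probe was 0.224, for HYOU1, and a dimmer CHAC1 probe had 0.212 (limma). At an unadjusted p under 0.05, 5 of 35 members (14.3%) differed between slides, beside 11.4% of all probes, and the methods' t-test with Benjamini-Hochberg adjustment called no member. Within each slide the median log2 fold change of members for KHSRP siRNA was -0.28 on the first and -0.18 on the second, and the median of the chaperones was -0.49 and -0.43. Neither slide alone, with 2 arrays a group, gave a called member (limma; 2112 and 1022 of all probes had an unadjusted p under 0.05). No member had a KHSRP siRNA effect that differed between slides by adjusted p (limma interaction term; 77 of the 18761 probes had an unadjusted p under 0.05).

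Whether the replicate numbers pair arrays of both groups bears on these calls. With the numbers of the series matrix, every pair of same-numbered arrays deviated together from its group means, and with the numbers of the scanner files the third and the fourth pair deviated in opposite directions. Blocked by replicate number as in the series matrix, 15 members (42.9%) were called lower, beside 17.1% of all genes, and 5 (14.3%) were called higher, beside 15.9%. The 15 were HSPA5, DNAJC3, MANF, HSP90B1, DNAJB11, CRELD2, SDF2L1, PDIA4, HYOU1, CANX, HERPUD1, SEL1L, DERL2, WFS1 and DDIT3, and the 5 were SESN2, DNAJB9, EDEM1, ASNS and CEBPB. Among them HERPUD1 had a log2 fold change of -0.63 (SE 0.085, limma, adjusted p = 0.00603) and EDEM1 one of 0.43 (SE 0.075, limma, adjusted p = 0.0122). Blocked by the scanner file numbers no member and 156 of all probes were called, with adjusted p of 0.0535 for SESN2 and 0.0719 for HSPA5 (limma). Which numbering is right cannot be told from the files. The fold changes cannot tell either, since in this balanced design a replicate block leaves the difference of group means unchanged under either numbering.

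Further genes of the same pathways were taken from a list of 77, of which 72 were tested. None rose, beside 2.14% of all genes, and 1 (1.39%) fell, beside 4.06% of all genes: SEC24D, which encodes a cargo adaptor of the vesicles that leave the ER. SEC24D was at 1.34, 1.20, 1.08 and 0.93 on the control arrays and at -0.01, 0.54, 0.12 and -0.11 on the KHSRP siRNA arrays. The groups did not overlap, and SEC24D fell 2.01-fold (SE 0.17 on the log2 scale, limma, adjusted p = 0.0118). With the scanner file number as a block, and on either slide alone, no further gene was called, SEC24D included. The medians of the further lists ran in the same order as those of the members: -0.23 for 23 genes of ER folding, translocation and retrieval, of which 19 were on the lower side, -0.18 for 12 genes of ER-associated degradation, -0.09 for 13 sensors and transducers, and 0.08 for 24 ATF4 and CHOP targets.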

How the data were processed

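The authors scanned the arrays and deposited the spot intensities of each array (Agilent Feature Extraction 11.5.1.1 per the file headers; 12.6 in the submitters' processing notes) and a series matrix of log2 values that the methods attribute to GeneSpring. The headers give the processed signal as background-subtracted, with no scaling between arrays. Control and outlier spots were left out, and log2 signals were averaged per probe and set relative to the 75th percentile of the array. Tests were limited to probes with 0.5 or more of their spots well above background on all 4 arrays of a group, and the brightest tested probe stood for a gene. Symbols came from RefSeq accessions (GRCh38.p14).

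The siRNA groups were compared by two-sided limma fits with no block (limma 3.58.1, R 4.3.3) and Benjamini-Hochberg adjustment over 18761 probes, and a call is an adjusted p under 0.05. The fit was tested on simulated data. Alternatives covered scaling, background correction, the series matrix, the filter, blocks, the test, the probe per gene and leaving out each array. The number of arrays limits the precision.

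Deviations from group means correlated between same-numbered arrays at 0.52, 0.43, -0.67 and -0.64 with the scanner file numbers and at 0.52, 0.43, 0.83 and 0.84 with the series matrix numbers, whose block fit used the matrix values.

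Members, lists and tests were chosen with earlier results of these data known. Values on every array are printed for called members, HSPA5, XBP1, ATF4, DDIT3, the largest change of each role list, the 5 largest SDs within groups, members called between slides (none) and called further genes. One of the further genes is not reported here.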

Additional observations from a re-analysis of the deposited data

Results flagged for a closer look

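In groups of 4 arrays, 3 of 72 groups (35 members and KHSRP) held an array whose gap to the next, divided by the range of the group, was above the critical value, and chance gives about 1 in 20. EIF2S1 on KHSRP siRNA replicate 3 was high (1.40, next 0.73; gap over range 0.866). CREB3L2 on control siRNA replicate 3 was low (2.21, next 2.49; 0.861). DERL2 on KHSRP siRNA replicate 3 was low (2.97, next 3.17; 0.856). In the fit with no block, limma called none of these 3 genes, with all arrays or without the array in question.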

How the results depend on the processing

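The comparison of members was repeated under 24 alternatives, 8 of which left out 1 array. The median log2 fold change of the members stayed between -0.33 and -0.18 in all 24. Alternatives that changed only the block or the test could not move this median, so they do not bear on that range. The count of called members, 4, was 1 without a filter on dim probes (SESN2), 0 with the replicate block by scanner file numbers, 20 with the replicate block by series matrix numbers, 0 on the first slide alone and 0 on the second, and 2 to 4 without 1 array; in the other alternatives it was 4 to 6. Between slides the count was 1 under median scaling (HYOU1), under which the median of all probes was -0.26 against 0.0072, and 0 in the others. Over all probes the calls were 360 higher and 679 lower, and under median scaling 98 and 472. ATF4, at 0.01, was -0.060 under median scaling, -0.023 under normexp, -0.034 on the second slide alone and -0.10 to 0.15 without 1 array; XBP1, at -0.04, was -0.070 to 0.0034 without 1 array. The cause of these changes was not tested. Of the 14 members with values given on every array, no other changed direction. HSPA5 lost its call in 4 alternatives: without the filter (limma, adjusted p = 0.0725), blocked by scanner file numbers and on either slide alone. Dim probes limit what can be said of ERN1, EIF2AK3, ERO1B and VLDLR.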
